A study of Mus musculus with 25 samples.

Results

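The 44 genes described here encode nuclear subunits of the oxidative phosphorylation system, and they were taken by name from 17591 genes measured in mouse breast tumors. They comprise 21 genes of complex I, 4 of complex II, 6 of complex III, 5 of complex IV, 7 of complex V and the electron carrier Cycs. All 44 were among the 13001 genes with enough reads to test. Tumors of 4 transplantable models of triple-negative breast cancer had been placed in the mammary gland of female mice aged 4 to 5 weeks at transplant, and the mice then received H3B-8800 or vehicle daily. H3B-8800 is a splicing modulator given by mouth. It acts on SF3B1, a protein of the U2 snRNP, with which the spliceosome marks the branch point of an intron. PyMT-M was carried in C57BL/6 hosts and labelled a responder, and it had 4 H3B-8800 and 4 vehicle libraries. AT3, also in C57BL/6 hosts and labelled a nonresponder, had 2 H3B-8800 and 3 vehicle libraries. The 2208L model, in Balb/c hosts and labelled a responder, and T11, in Balb/c hosts and labelled a nonresponder, had 3 H3B-8800 and 3 vehicle libraries each. The sample titles call the tumors GEMM, for genetically engineered mouse model. Beyond the model names, PyMT-M among them, the labels name no driver transgene. The RNA came from whole tumors, host cells included. The tumors are described as biological replicates.

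Oxidative phosphorylation takes place in the inner mitochondrial membrane. Complexes I and II accept electrons from NADH and succinate, ubiquinone carries them to complex III, cytochrome c carries them on to complex IV, and complexes I, III and IV pump protons that drive ATP synthesis by complex V. Most subunits are encoded in the nucleus by short genes with several introns, and complex II is also an enzyme of the tricarboxylic acid cycle. The subunits encoded by mitochondrial DNA have no introns and were not measured here.

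Reads inside each intron and all reads overlapping it had been counted. A gene's level is the sum over its introns of the overlapping reads minus the intronic reads, which were taken as spliced reads, given per 1000000 spliced reads of the library (CPM), with library sizes scaled by TMM. Retention of an intron is the percent of its overlapping reads that lie inside it. It is not adjusted for intron length, so it does not give the share of transcripts in which an intron remains. The members have 238 introns, of which 205 had enough reads to test. Libraries held 9820825 to 19700955 spliced reads, and 7.90 to 27.8% of all overlapping reads were intronic. The libraries of T11 go against their labels, because retention was higher in those labelled vehicle than in those labelled H3B-8800. They are named by label throughout and were kept out of every mean over models. The 5 epithelial markers, Epcam, Cdh1 and 3 keratins, summed to 3060 to 6455 CPM in PyMT-M and 2208L libraries and to 101 to 508 CPM in AT3 and T11 libraries. Some members have intronless processed copies in the genome, Cycs among them. How reads that match such copies were handled is not given in the sources used here.

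Another property of the libraries moved with the level of the members. Over 5166 genes with at least 10 introns, the spliced reads over the first 3 introns divided by those over the last 3 lay between 0.4999 and 0.798 in 21 libraries. In PyMT-M vehicle replicate 4, AT3 H3B-8800 replicate 1, T11 labelled vehicle replicate 1 and 2208L vehicle replicate 1 it was 0.318, 0.324, 0.419 and 0.437. These 4 libraries had relatively few reads at the 5′ end of long transcripts, and each held the highest mean level of the 44 members among the libraries of its own group. Relative to the mean of its model on the log2 scale, the members averaged 0.12 in PyMT-M vehicle replicate 4, against -0.47, -0.28 and -0.18 in the other PyMT-M vehicle libraries. In AT3 H3B-8800 replicate 1 they averaged 0.69, against -0.13 in replicate 2. The 79 ribosomal protein genes, which are also short, stood 0.52, 0.66, 0.94 and 0.35 above the mean of the model in the 4 libraries. Counts of called members are therefore also given without these 4 libraries, and what part they have in the level differences was not tested.

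**Figure D1:**
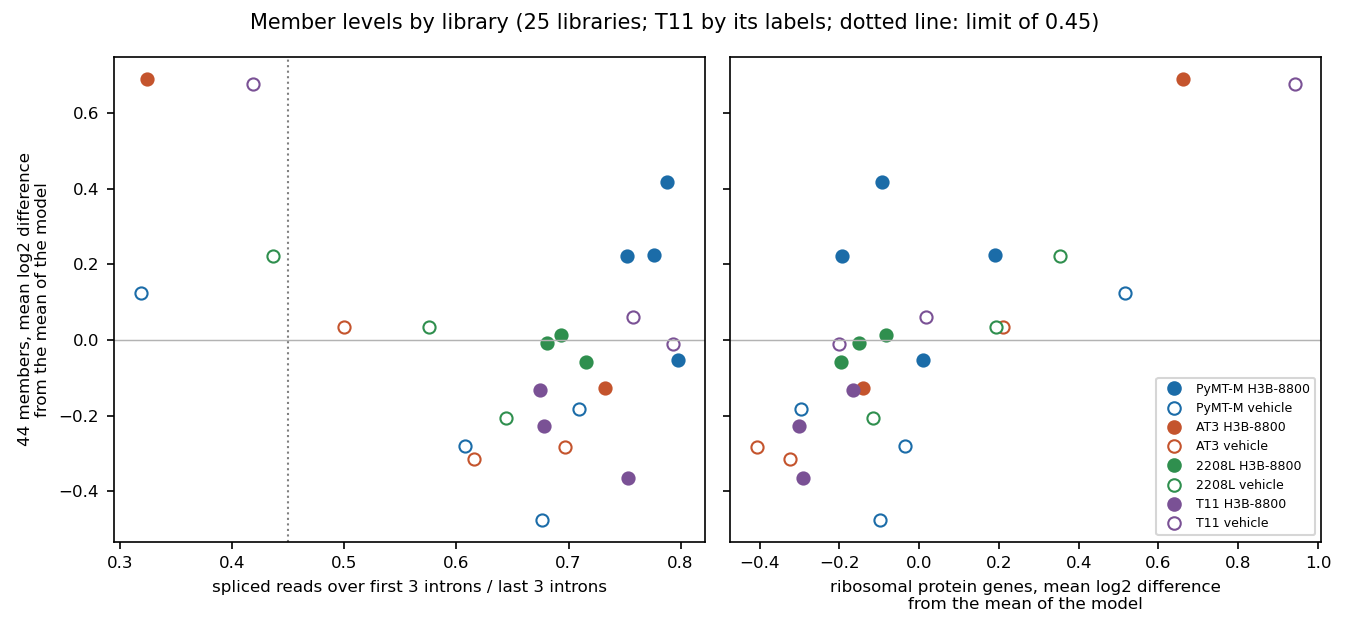
Each point is 1 of the 25 libraries. The y axis is the mean log2 difference of the 44 members from the mean of the model; the x axis is the ratio of spliced reads over the first 3 and the last 3 introns (left) or the same mean difference for 79 ribosomal protein genes (right). AT3 H3B-8800 replicate 1 and T11 labelled vehicle replicate 1 lie highest, at 0.69 and 0.68, and the 4 H3B-8800 libraries of PyMT-M lie between -0.05 and 0.42 with ratios above 0.75.

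In PyMT-M tumors some genes of the respiratory chain rose with H3B-8800 and 31 of the 44 were not called. By the edgeR quasi-likelihood test with Benjamini-Hochberg adjustment over all genes, 13 of the 44 members rose and none fell, where 10.2% of all genes tested rose and 14.6% fell. The estimated change had a median of 0.40 on the log2 scale, against 0.02 over all genes and -0.07 over the 79 ribosomal protein genes. It was positive for 43 members. Ndufv2, a core subunit of complex I, was the exception at -0.12 (SE 0.22, adjusted p = 0.73). In bulk tumors, a change in the share of cells that express a gene cannot be told apart from a change in RNA per cell.

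In complex II 3 of 4 genes rose. Sdha, the flavoprotein subunit that oxidises succinate, had 577, 575, 585 and 481 CPM in H3B-8800 tumors, against 374, 394, 423 and 303 CPM in vehicle tumors (log2 change 0.57, SE 0.10, adjusted p = 0.000365). Every H3B-8800 library lay above every vehicle library. Sdhc, a membrane anchor of the complex, had 280, 253, 298 and 225 CPM in H3B-8800 tumors and 175, 183, 208.4 and 152 CPM in vehicle tumors (0.56, SE 0.11, adjusted p = 0.0011). The other membrane anchor, Sdhd, had 102, 100, 103 and 82.1 CPM in H3B-8800 tumors and 67.2, 70.6, 74.2 and 62.9 CPM in vehicle tumors (0.49, SE 0.10, adjusted p = 0.0019). Neither gene's groups overlapped. In all 3 genes vehicle replicate 4, which had few reads at first introns, was the lowest library, whereas for most members it was the highest vehicle library. Sdhb, the iron-sulfur subunit, had 224, 224, 309 and 199 CPM in H3B-8800 tumors and 153, 186, 206 and 281 CPM in vehicle tumors, and its groups overlapped through vehicle replicate 4 (0.21, SE 0.19, adjusted p = 0.44).

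In complex III 2 of 6 members rose. The largest change among the 13 was that of Uqcrfs1, the Rieske iron-sulfur protein, with 50.8, 52.1, 61.1 and 35.7 CPM in H3B-8800 tumors, against 24.3, 27.3, 33.3 and 24.5 CPM in vehicle tumors (0.87, SE 0.17, adjusted p = 0.000891). Its H3B-8800 libraries were all above its vehicle libraries, with replicate 4 close to the highest of them. Uqcrc2, a core protein of the complex, rose by 0.41 (SE 0.11, adjusted p = 0.011). Its partner Uqcrc1 had 459, 455, 485 and 371 CPM in H3B-8800 tumors and 336, 370, 403 and 426 CPM in vehicle tumors, which overlap (0.21, SE 0.15, adjusted p = 0.33). Cyc1, the cytochrome c1 of the complex, was at 0.31 and the small subunits Uqcrb and Uqcrq were at 0.33 and 0.63, none of them past the threshold.

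Cytochrome c itself rose. Cycs, which besides carrying electrons triggers caspase activation when released from mitochondria, had 127, 122, 186 and 151 CPM in H3B-8800 tumors and 69.3, 84.2, 108 and 114 CPM in vehicle tumors (0.64, SE 0.18, adjusted p = 0.012). The lowest H3B-8800 library was above the highest vehicle library, and the call was lost without H3B-8800 replicate 3.

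Of the 21 genes of complex I, 3 accessory subunits rose. Ndufb8 had 357, 405, 482 and 308 CPM in H3B-8800 tumors and 187, 220, 254.5 and 280 CPM in vehicle tumors (0.72, SE 0.20, adjusted p = 0.012). Ndufb9 had 271, 319, 399 and 247 CPM in H3B-8800 tumors and 127, 161, 215 and 219 CPM in vehicle tumors (0.77, SE 0.24, adjusted p = 0.021). The groups of both genes were apart. Ndufa10 rose by 0.41 (SE 0.14, adjusted p = 0.036). The 6 core subunits in the set, which hold the flavin and the iron-sulfur clusters or bind ubiquinone, were among those not called. Ndufs1, Ndufs3, Ndufs7, Ndufs8, Ndufv1 and Ndufv2 had log2 changes between -0.12 and 0.26. Ndufa4, first described in complex I and later found with complex IV, had 771, 697, 793 and 530 CPM in H3B-8800 tumors and 389, 480, 443 and 684 CPM in vehicle tumors (0.48, SE 0.23, adjusted p = 0.13). Its vehicle replicate 4 lay inside the range of the H3B-8800 libraries and the other vehicle libraries lay below it.

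In complex IV, Cox7a2 rose by 0.60 (SE 0.21, adjusted p = 0.041), and the other 4 genes, Cox4i1, Cox5a, Cox5b and Cox6c, were at 0.39 to 0.51 and not past the threshold. In complex V 3 of 7 genes rose. Atp5b, the catalytic beta subunit and the member with the highest level per intron, had 2253, 2227, 2632 and 1855 CPM in H3B-8800 tumors and 1470, 1522, 1694 and 1487 CPM in vehicle tumors (0.54, SE 0.13, adjusted p = 0.0046). Its groups were apart. Atp5a1, the alpha subunit, rose by 0.43 (SE 0.10, adjusted p = 0.0052), and Atp5f1, the b subunit of the peripheral stalk, rose by 0.60 (SE 0.15, adjusted p = 0.0069).

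**Figure D2:**
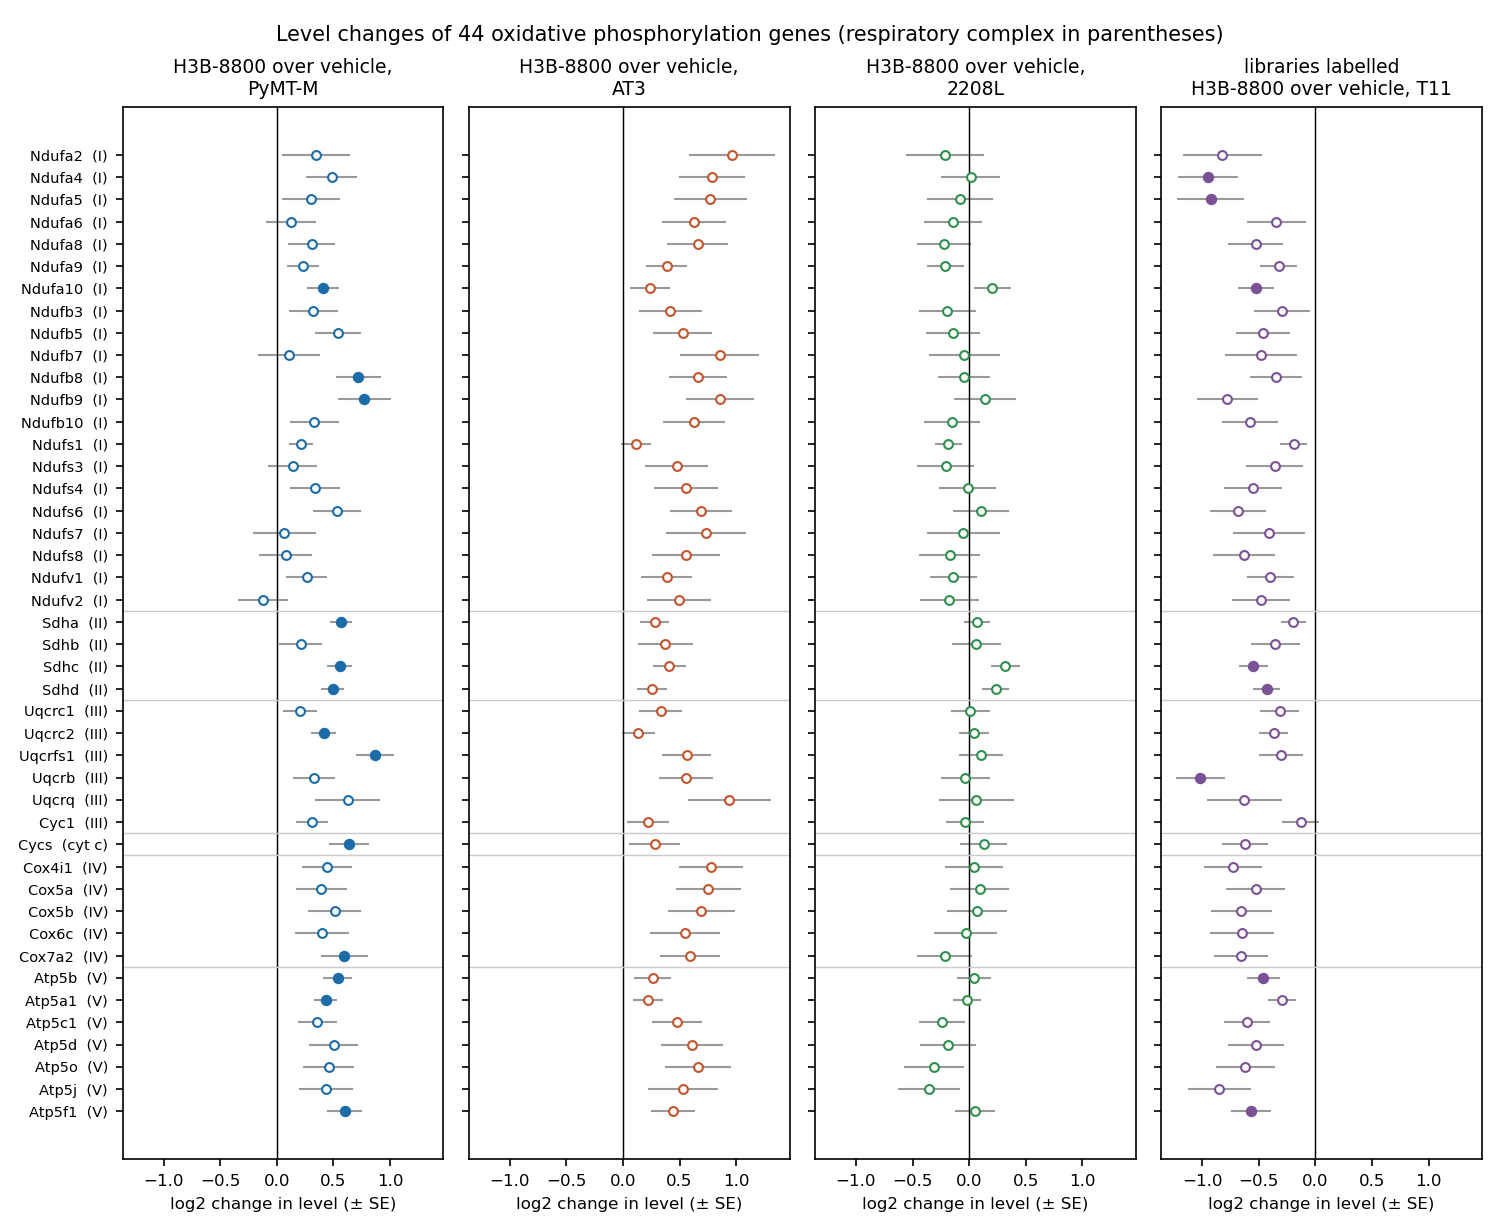
Points are the log2 changes in level of the 44 members with their SE, H3B-8800 over vehicle, in PyMT-M, AT3, 2208L and, by label, T11, with members grouped by complex. Filled points passed an adjusted p of 0.05: 13 in PyMT-M, none in AT3 and 2208L, and 8 in T11, where every point lies below 0.

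Without the 4 libraries with few reads at first introns, 36 of the 44 members rose in PyMT-M and none fell, where 12.4% of 12917 genes tested rose. Of the 4 only vehicle replicate 4 is a PyMT-M library, and among vehicle libraries the members averaged highest in it. Leaving it out therefore raises the change of most members, and the 36 calls are not separate support for a rise. It was left out after the data were seen. The 36 included all 13 of the genes above, and 23 others. By complex they numbered 14 of 21 in complex I, 4 of 4 in complex II, 5 of 6 in complex III, 5 of 5 in complex IV and 7 of 7 in complex V, besides Cycs. The members not called were Ndufa6, Ndufb7, Ndufs1, Ndufs3, Ndufs7, Ndufs8, Ndufv2 and Uqcrc1, and thus 5 of the 6 core subunits of complex I, a grouping noticed after the values were seen. The median change was 0.49. The largest was that of Uqcrq, a small subunit of complex III, at 0.93 (82.4, 72.2, 108 and 73.3 CPM in H3B-8800 tumors, and 32.6, 49.1 and 49.3 CPM in the 3 vehicle tumors kept). Sdha was at 0.47 and Uqcrfs1 at 0.81.

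With all other libraries kept, the count fell to 8 without H3B-8800 replicate 3, a fit for which the share of all genes is not given. In that replicate the members were highest. That library had the lowest TMM factor of all libraries, 0.716, and a low factor raises the CPM of every gene in it. H3B-8800 replicates 1 and 2 of PyMT-M also carried transcripts of skeletal muscle, a tissue rich in mitochondria. All 14 muscle markers summed to 533 and 322 CPM in them, against 9.04 and 10.6 CPM in replicates 3 and 4 and at most 17.5 CPM in vehicle tumors, where 4 to 6 of the markers were at 0. Libraries were set aside for muscle or B cell transcripts where the mean log2 level of those markers was over 3 above the median of all libraries. AT3 vehicle replicate 2 was kept, though its B cell markers summed to 53.2 CPM, against 0.952 and 0.811 CPM in the other AT3 vehicle tumors. Without the libraries set aside 10 members rose and none fell, where 7.34% of all genes rose and 7.93% fell. Ptprc, a marker of leukocytes, was at 55.3 to 92.4 CPM in H3B-8800 tumors and 26.3 to 35.6 CPM in vehicle tumors. The 4 macrophage markers summed to 308 to 429 CPM in H3B-8800 tumors and 74.1 to 228 CPM in vehicle tumors, without overlap and with none at 0. The 5 adipocyte markers summed to 2.04 to 217 CPM in H3B-8800 tumors and 0.0732 to 15.7 CPM in vehicle tumors, and these ranges overlap. The part of these cells in the rise was not tested.

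**Figure D3:**
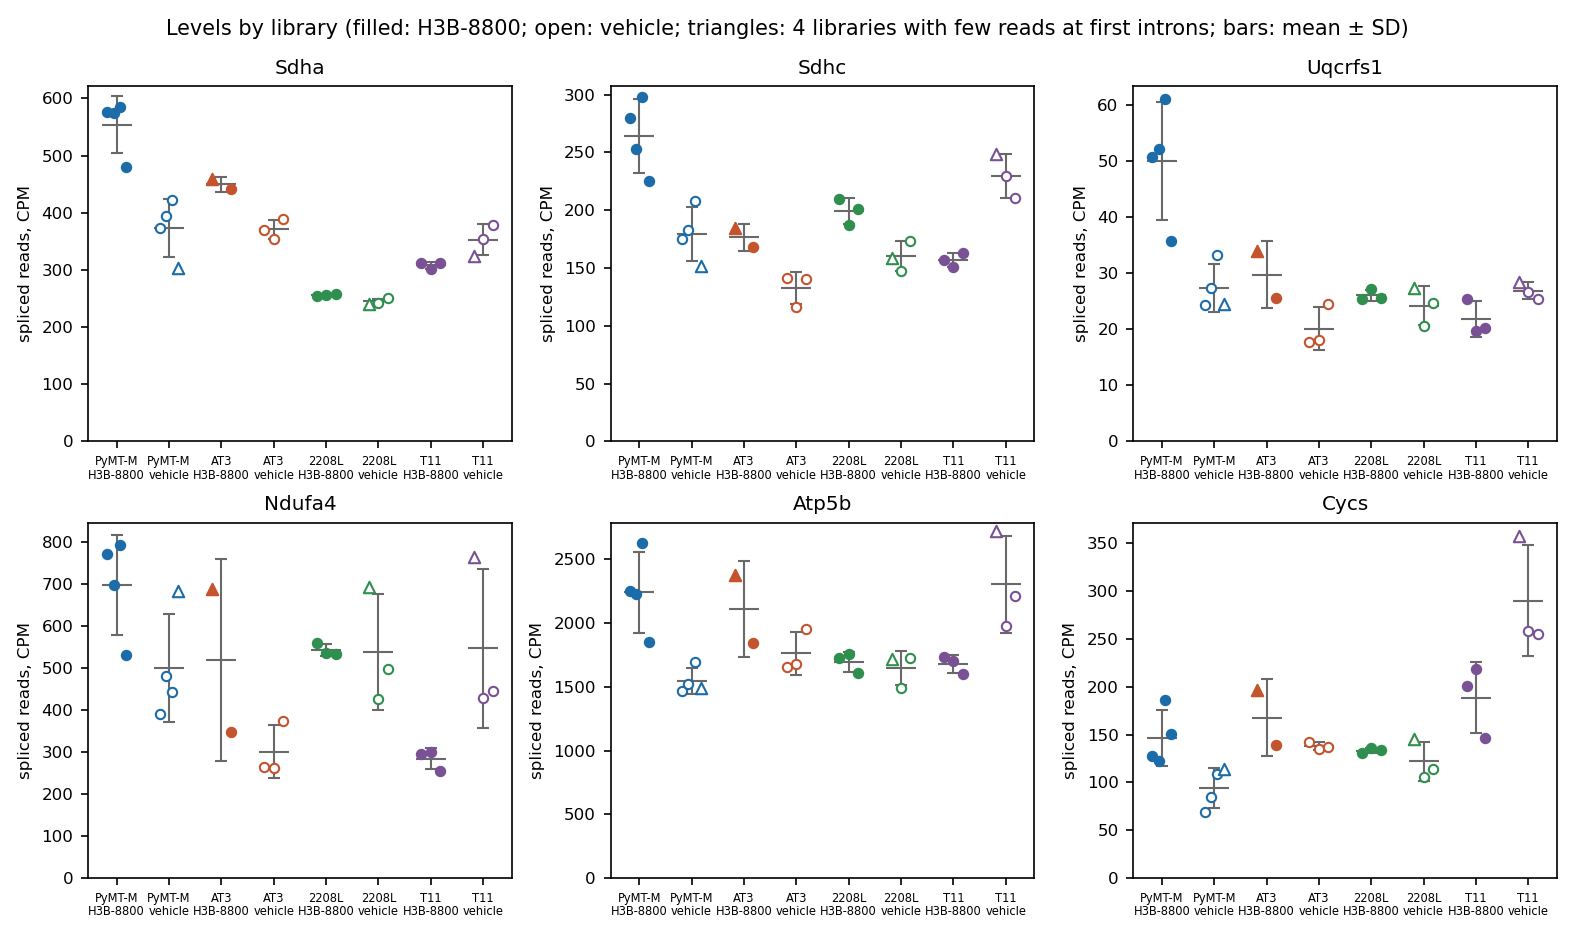
Levels in CPM of Sdha, Sdhc, Uqcrfs1, Ndufa4, Atp5b and Cycs in each library, by model and treatment (filled points H3B-8800, open points vehicle, bars mean ± SD), with T11 by its labels. Triangles mark the 4 libraries with few reads at first introns. In PyMT-M the H3B-8800 libraries lie above the vehicle libraries for all genes shown but Ndufa4.

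In AT3 the estimates were positive for all 44 members. Their median was 0.55, against 0.00 over all genes and 0.47 over the 79 ribosomal protein genes. No member passed the threshold, where 0.300% of all genes did in either direction. The smallest adjusted p was 0.219, and DESeq2 called 0 as well. At an unadjusted p under 0.05, 25 members were higher and 0 lower, where 7.37% of all genes were higher and 5.63% lower. The 2 H3B-8800 libraries stood far apart. Ndufa4 had 689 and 348 CPM in H3B-8800 tumors and 264, 263 and 374 CPM in vehicle tumors (0.79, SE 0.29, adjusted p = 0.25). Atp5b had 2380 and 1847 CPM in H3B-8800 tumors and 1655, 1678 and 1954 CPM in vehicle tumors (0.26, SE 0.17, adjusted p = 0.54). In both genes H3B-8800 replicate 2 lay within the range of the vehicle libraries and replicate 1, one of the 4 libraries with few reads at first introns, lay above it. Cycs was at 0.28 (SE 0.23, adjusted p = 0.67). Sdha had 459 and 441 CPM in H3B-8800 tumors and 371, 354 and 388 CPM in vehicle tumors, and here both H3B-8800 libraries were the higher (0.28, SE 0.13, adjusted p = 0.36). With the library totals behind the deposited RPKM values in place of TMM, Atp5b, Cycs and Sdha were at -0.039, -0.039 and -0.0058. Without H3B-8800 replicate 2, 13 members were called higher, where 2.42% of all genes were. That fit rests on 1 H3B-8800 library, replicate 1 with few reads at first introns, assumed to vary like the other groups. Without the 4 libraries, which leaves H3B-8800 replicate 2 alone under the same assumption, none was and the median was 0.02.

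In 2208L the members were close to even. None passed the threshold by edgeR or by DESeq2, where 10.3% of all genes did in either direction. The median change was -0.04, against -0.30 over the 79 ribosomal protein genes, with 18 member estimates positive and 26 negative. One member, Sdhc, had an unadjusted p under 0.05, where 26.4% of all genes did. It had 210, 188 and 201 CPM in H3B-8800 tumors and 159, 148 and 174 CPM in vehicle tumors (0.32, SE 0.13, adjusted p = 0.11). Its groups did not overlap. All 4 genes of complex II were positive, at 0.06 to 0.32. Sdha was at 0.07 (SE 0.11, adjusted p = 0.76), Cycs at 0.13 (SE 0.21, adjusted p = 0.74), Atp5b at 0.04 (SE 0.15, adjusted p = 0.89) and Ndufa4 at 0.01 (SE 0.26, adjusted p = 0.99). Vehicle replicate 1, with few reads at first introns, also held 5184 CPM of muscle markers. Without the 4 libraries no member was called, where 13.3% of all genes were, and the median was 0.05. Ptprc was at 150 to 165 CPM in H3B-8800 tumors and 31.9 to 96.7 CPM in vehicle tumors. The 4 macrophage markers summed to 777 to 888 CPM with H3B-8800 and 116 to 440 CPM with vehicle. The part of these cells was not tested.

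In T11, 8 members were lower under the H3B-8800 label than under the vehicle label and none was higher, where 5.07% of all genes were lower. All 44 estimates were negative, with a median of -0.53 against -0.04 over all genes. The 79 ribosomal protein genes had a median of -0.61, with 6 of them called lower and none higher. Uqcrb, a small subunit of complex III, had 125, 130 and 108 CPM in libraries labelled H3B-8800 and 338, 204 and 193 CPM in libraries labelled vehicle (-1.02, SE 0.22, adjusted p = 0.0049). Sdhc had 157, 150 and 163 CPM in libraries labelled H3B-8800 and 248, 229 and 211 CPM in libraries labelled vehicle (-0.55, SE 0.13, adjusted p = 0.0093). In neither did the groups overlap. The others called were Ndufa4 at -0.95, Ndufa5 at -0.92, Atp5f1 at -0.57, Ndufa10 at -0.52, Atp5b at -0.46 and Sdhd at -0.43. Sdha was at -0.19 (SE 0.11, adjusted p = 0.29), or 0.040 without TMM, and Cycs at -0.62 (SE 0.21, adjusted p = 0.053). Replicate 1 labelled vehicle, with few reads at first introns, was the highest library for each of the 8 but Sdhd, with 764 CPM of Ndufa4 against 429 and 446 CPM in the others labelled vehicle, 301 CPM of Ndufa5 against 158 and 168 CPM, and 2725 CPM of Atp5b against 1980 and 2212 CPM. The count was 6 without the 4 libraries, where 9.44% of all genes were lower, with a median of -0.26. For the fits that leave out 1 library the share of all genes is not given. The count was 3 without replicate 1 labelled vehicle or replicate 1 labelled H3B-8800. It was 2 without replicate 2 or replicate 3 labelled H3B-8800, and 15 without replicate 3 labelled vehicle. That last library had 7626 CPM of muscle markers. Without the libraries set aside for muscle or B cell transcripts 1 member was called lower, where 1.12% of all genes were. Ptprc was at 61.0 to 162 CPM under the H3B-8800 label and 15.8 to 60.4 CPM under the vehicle label. The 4 T cell markers summed to 2.36 to 42.2 CPM under the H3B-8800 label and 0.249 to 0.576 CPM under the vehicle label, where up to 2 of them were at 0, and the 4 macrophage markers to 525 to 688 CPM under the H3B-8800 label and 457 to 512 CPM under the vehicle label. None of these ranges overlap, and their part in the difference was not tested.

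Averaged over PyMT-M, AT3 and 2208L, 17 members rose and none fell, where 10.7% of all genes rose. The median was 0.29, against 0.02 over all genes and 0.03 over the 79 ribosomal protein genes. Those with the smallest p were Sdhc at 0.43 (SE 0.07, adjusted p = 0.000296), Sdhd at 0.33, Sdha at 0.30, Uqcrfs1 at 0.51, Ndufb9 at 0.59, Atp5f1 at 0.36, Ndufb8 at 0.45 and Atp5b at 0.28. Cycs was at 0.35 (SE 0.12, adjusted p = 0.036) and Ndufa4 at 0.43 (SE 0.15, adjusted p = 0.045). The count of 17 became 4 without AT3 H3B-8800 replicate 1 and 28 without AT3 H3B-8800 replicate 2. No share of all genes stands beside these counts, so nothing particular to the members is read from them. The count was 9 without PyMT-M H3B-8800 replicate 3. It was 10 without any 1 of 2208L H3B-8800 replicates 1 and 2 or vehicle replicate 3. It was 11 without any 1 of AT3 vehicle replicate 2, 2208L vehicle replicate 2 or 2208L H3B-8800 replicate 3. Without the 4 libraries with few reads at first introns it was 16, where 12.9% of all genes rose.

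Whether the drug effect differed between a responder and a nonresponder model of the same host strain was tested as an interaction. For PyMT-M minus AT3 no member was called by edgeR or DESeq2, where 1.10% of all genes were called in either direction. None had an unadjusted p under 0.05, where 15.7% of all genes did. The median of the differences was -0.14. Sdha was at 0.29 (SE 0.16, adjusted p = 0.39), Cycs at 0.36 (SE 0.29, adjusted p = 0.57), Atp5b at 0.28 (SE 0.21, adjusted p = 0.55) and Ndufa4 at -0.30 (SE 0.37, adjusted p = 0.74). Without the 4 libraries all 44 differences were positive, with a median of 0.46, and none was called. For 2208L minus T11 by its labels, 4 members were called higher and none lower, where 6.88% of all genes were higher. They were Sdhc at 0.87 (SE 0.18, adjusted p = 0.0025), Sdhd at 0.66 (SE 0.17, adjusted p = 0.011), Ndufa10 at 0.73 (SE 0.23, adjusted p = 0.033) and Uqcrb at 0.98 (SE 0.30, adjusted p = 0.030). Ndufa4 was at 0.96 (SE 0.37, adjusted p = 0.085), Cycs at 0.75 (SE 0.29, adjusted p = 0.084), Atp5b at 0.50 (SE 0.21, adjusted p = 0.11) and Sdha at 0.26 (SE 0.16, adjusted p = 0.30). Since the libraries of T11 go against their labels, the sign of this difference rests on them. The count was 6 without the 4 libraries, with Ndufa4 and Ndufs6 besides, where 11.9% of all genes were higher. It was 2 without any 1 of replicate 1 labelled vehicle or replicate 3 labelled H3B-8800 of T11, or vehicle replicates 2 and 3 or H3B-8800 replicates 1 and 3 of 2208L.

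Among the introns of the same genes, more were called higher than lower with H3B-8800 in each of PyMT-M, AT3 and 2208L, and most introns were not called in AT3 and 2208L. Pooled over all member introns, retention was 10.2, 10.05, 7.11 and 10.3% in PyMT-M H3B-8800 tumors, a mean of 9.42 ± 1.55% (SD, n = 4), against 4.35 ± 1.15% in vehicle tumors (n = 4). In AT3 it was 5.66 and 10.1% in H3B-8800 tumors, against 4.92 ± 2.00% in vehicle tumors (n = 3), and these groups overlap. In 2208L it was 4.47 ± 0.26% in H3B-8800 tumors and 2.55 ± 0.77% in vehicle tumors (n = 3 each). In T11 it was 3.57 ± 0.75% under the H3B-8800 label and 4.91 ± 2.09% under the vehicle label (n = 3 each). Over all introns in the files it was 23.7 ± 4.23% in PyMT-M H3B-8800 tumors and 14.3 ± 4.17% in PyMT-M vehicle tumors, so the members sat below the whole in both.

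Intron by intron, with the gene's own spliced reads as the reference, 124 of 205 member introns in 35 genes rose in PyMT-M and 5 fell, where 54.7% of all introns tested rose and 5.68% fell. The median log2 change was 1.46 in member introns and 1.57 over all introns. In AT3, 32 rose and none fell (19.4% of all introns rose), with a median of 0.97 against 1.10. In 2208L, 51 rose and 2 fell (21.0% and 0.534% of all introns), with a median of 0.94 against 1.07. In T11, 22 were lower and 1 higher in the libraries labelled H3B-8800 (19.6% and 0.761% of all introns), with a median of -0.55 against -0.84. The members' shares are close to those of all introns in PyMT-M, AT3 and 2208L and lower in T11, and nothing particular to the members is read from them. For the mean of PyMT-M, AT3 and 2208L, 130 member introns in 38 genes rose and 4 fell, where 56.1% of all introns rose and 2.65% fell, with a median of 1.18 against 1.25. The 32 calls in AT3 became 4 when H3B-8800 replicate 2 was left out, 13 and 15 when vehicle replicate 1 or vehicle replicate 3 was, and 71 without the 4 libraries with few reads at first introns. In 2208L the 53 calls became 17 without vehicle replicate 1 and 30 without H3B-8800 replicate 1. In T11 the 23 calls became 12, 13, 15 and 36 without replicate 1 labelled H3B-8800, replicate 2 labelled vehicle, replicate 2 labelled H3B-8800 and replicate 1 labelled vehicle. Calls over all introns moved the same way. They were 4218 and 5318 in AT3 without vehicle replicate 1 or vehicle replicate 3. In 2208L they were 4996 and 6884 without vehicle replicate 1 or H3B-8800 replicate 1. In T11 they were 6328, 5703, 6344 and 12558 in the order above, and nothing particular to the members is read from these shifts.

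Among the complexes, complex III had the widest gap in PyMT-M. Its pooled retention was 14.2 ± 2.50% in H3B-8800 tumors and 3.91 ± 0.96% in vehicle tumors, with 25 of 33 introns higher, in 3 genes. Complex I was at 14.2 ± 2.24% in H3B-8800 tumors and 6.31 ± 1.82% in vehicle tumors, with 61 of 91 introns higher. Complex II was at 11.1 ± 1.70% in H3B-8800 tumors and 6.64 ± 2.01% in vehicle tumors, with 8 of 24 higher. Complex V was at 5.67 ± 1.00% and complex IV at 4.92 ± 0.89% in H3B-8800 tumors, against 3.05 ± 0.82% for complex V and 3.09 ± 0.86% for complex IV in vehicle tumors (n = 4 each throughout). Differences between complexes were not tested.

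The genes of complex III carried many of the retained introns. All 12 introns of Uqcrc1 were tested, and 10 rose and 1 fell in PyMT-M. All 6 introns of Cyc1 and 9 of 10 tested introns of Uqcrc2 rose as well, whereas none of the 5 introns of Uqcrfs1, Uqcrb and Uqcrq did. The splice sites of introns discussed below show where these introns begin and end. A donor is given as 3 exon and 6 intron bases and an acceptor as 40 intron and 3 exon bases, 5′ to 3′ on the strand of the gene, from GENCODE M21 transcripts that hold the whole intron, and capitals mark the bases of the intron in the donor and the AG that ends the intron in the acceptor. Uqcrc1 intron 8 (chr9:108947480-108947597, plus strand, mm10) rose in PyMT-M and AT3, Uqcrc1 intron 12 (chr9:108949015-108949434, plus strand) fell in PyMT-M and 2208L, Ndufv1 intron 4 (chr19:4009534-4009825, minus strand) rose in all 3 models, and Cyc1 intron 1 (chr15:76343693-76344301, plus strand) had the highest retention among them.
Uqcrc1 intron 8 donor: gtgGTAAGT
Uqcrc1 intron 8 acceptor: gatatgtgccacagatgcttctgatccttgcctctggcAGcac
Uqcrc1 intron 12 donor: atgGTAAGT
Uqcrc1 intron 12 acceptor: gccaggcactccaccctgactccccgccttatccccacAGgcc
Ndufv1 intron 4 donor: cagGTGAGA
Ndufv1 intron 4 acceptor: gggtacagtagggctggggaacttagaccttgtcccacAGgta
Cyc1 intron 1 donor: cagGTGAGT
Cyc1 intron 1 acceptor: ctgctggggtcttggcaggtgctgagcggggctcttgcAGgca
The first pair, a retained intron and the one that fell in the same gene, have the same 6 donor bases, GTAAGT, and both acceptors are 75% pyrimidine over the 20 bases that precede the last 3 of the intron. The acceptor of Ndufv1 intron 4 is 55% and that of Cyc1 intron 1 is 45% pyrimidine over the same stretch.

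Uqcrc1 intron 8 spans 118 bases. Its retention was 12.1, 14.8, 9.14 and 11.7% in PyMT-M H3B-8800 tumors, against 1.14, 0.371, 2.44 and 2.02% in vehicle tumors (log2 change 3.12, SE 0.58, adjusted p = 2.71e-05). The groups were far apart. It also rose in AT3 (1.95, SE 0.70, adjusted p = 0.045), was at 1.87 in 2208L (SE 0.75, adjusted p = 0.0675), and was lower in T11 libraries labelled H3B-8800 (-2.77, SE 0.75, adjusted p = 0.00697). Uqcrc1 intron 12, the last of the gene, went the other way, with 4.63, 6.00, 4.10 and 10% in PyMT-M H3B-8800 tumors, against 12.3, 16.2, 13.2 and 16.4% in vehicle tumors (-1.60, SE 0.49, adjusted p = 0.0058). In 2208L it was at 4.17, 2.99 and 3.95% in H3B-8800 tumors, against 13.2, 12.7 and 14.1% in vehicle tumors (-2.38, SE 0.62, adjusted p = 0.0061). Every vehicle tumor lay above every H3B-8800 tumor in both models. In AT3 it was at 0.09 (SE 0.64, adjusted p = 0.957). An annotated exon begins or ends inside this intron, so that reads of another transcript could be counted there.

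Another intron of the gene showed the largest difference in percent among those named. Uqcrc1 intron 2 (chr9:108937157-108942083, 4927 bases, no annotated exon edge inside) was retained at 44.8, 39.1, 33.5 and 35.5% in PyMT-M H3B-8800 tumors, against 2.87, 0.505, 1.86 and 1.42% in vehicle tumors (5.27, SE 0.72, adjusted p = 4.31e-07). In 2208L it was at 12.9, 12.8 and 8.14% in H3B-8800 tumors, against 1.77, 1.86 and 0% in vehicle tumors (3.48, SE 0.85, adjusted p = 0.0043). In AT3 the 2 H3B-8800 tumors differed, at 3.12 and 23.9%, against 1.17, 1.69 and 1.69% in vehicle tumors (3.43, SE 0.86, adjusted p = 0.0058). Replicate 1 of AT3 with H3B-8800 was the nearer to vehicle. The calls in AT3 of Uqcrc1 introns 2, 4 and 5, Atp5f1 introns 3 and 7, Cyc1 intron 5 and Ndufs7 intron 6 were lost without H3B-8800 replicate 2. The introns 4 and 5 of the gene were called higher in the same 3 models, by 3.38 and 4.54 in PyMT-M. Over these changes the level of Uqcrc1 was not called in any model.

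Atp5f1 intron 3 (chr3:105958899-105959147, minus strand, 249 bases) was nearly absent from PyMT-M and 2208L vehicle tumors. Its retention was 12.3, 9.01, 8.75 and 10.2% in PyMT-M H3B-8800 tumors, against 0, 0.106, 0.276 and 0.169% in vehicle tumors (6.30, SE 0.67, adjusted p = 5.31e-09). In 2208L it was 5.99, 2.82 and 4.43% in H3B-8800 tumors and 0% in all 3 vehicle tumors, so that no fold is given (adjusted p = 6.42e-05). In AT3 it was 6.01 and 11.3% in H3B-8800 tumors, against 0.297, 1.25 and 1.25% in vehicle tumors (3.38, SE 0.68, adjusted p = 0.00091). No library with the drug overlapped one without it in these models. In T11 the order was inverted, with 0.680, 0.659 and 0.436% in libraries labelled H3B-8800 and 9.26, 26.0 and 19.1% in libraries labelled vehicle (-5.12, SE 0.67, adjusted p = 1.89e-06). Intron 7 of the same gene behaved alike, at 3.77 in PyMT-M, 3.02 in AT3, 2.43 in 2208L and -4.91 in T11 by its labels.

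In complex I, Ndufs1 intron 15, within the gene of the largest subunit, was retained at 30.6, 19.9, 25.4 and 25.9% in PyMT-M H3B-8800 tumors, against 4.81, 4.06, 3.08 and 3.40% in vehicle tumors (2.81, SE 0.53, adjusted p = 3.5e-05). It rose in AT3 by 3.25 and in 2208L by 2.28, and was not called in T11 (-0.61, SE 0.60, adjusted p = 0.52). Ndufv1 intron 4, in the gene of the subunit that binds NADH, was at 24.1, 35.97, 26.0 and 38.9% in PyMT-M H3B-8800 tumors, against 16.6, 5.78, 9.13 and 11.8% in vehicle tumors (2.02, SE 0.46, adjusted p = 0.000303). Ndufs7 intron 6, in the gene of an iron-sulfur subunit, rose by 3.24 in PyMT-M, 2.38 in AT3 and 2.69 in 2208L. In complex III, Uqcrc2 intron 1 was at 37.3, 38.8, 27.4 and 41.9% in PyMT-M H3B-8800 tumors, against 12.96, 6.77, 6.56 and 11.2% in vehicle tumors (2.72, SE 0.48, adjusted p = 1.22e-05), and rose by 4.00 in AT3 and 1.89 in 2208L. Cyc1 intron 5 was at 11.6, 12.6, 9.63 and 10.9% in PyMT-M H3B-8800 tumors, against 1.46, 0.573, 2.77 and 1.78% in vehicle tumors (2.84, SE 0.47, adjusted p = 5.74e-06). All of these groups were apart. Annotated exon edges lie inside Ndufs1 intron 15, Ndufs7 intron 6 and Uqcrc2 intron 1, and none inside Cyc1 intron 5 and Ndufv1 intron 4.

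**Figure D4:**
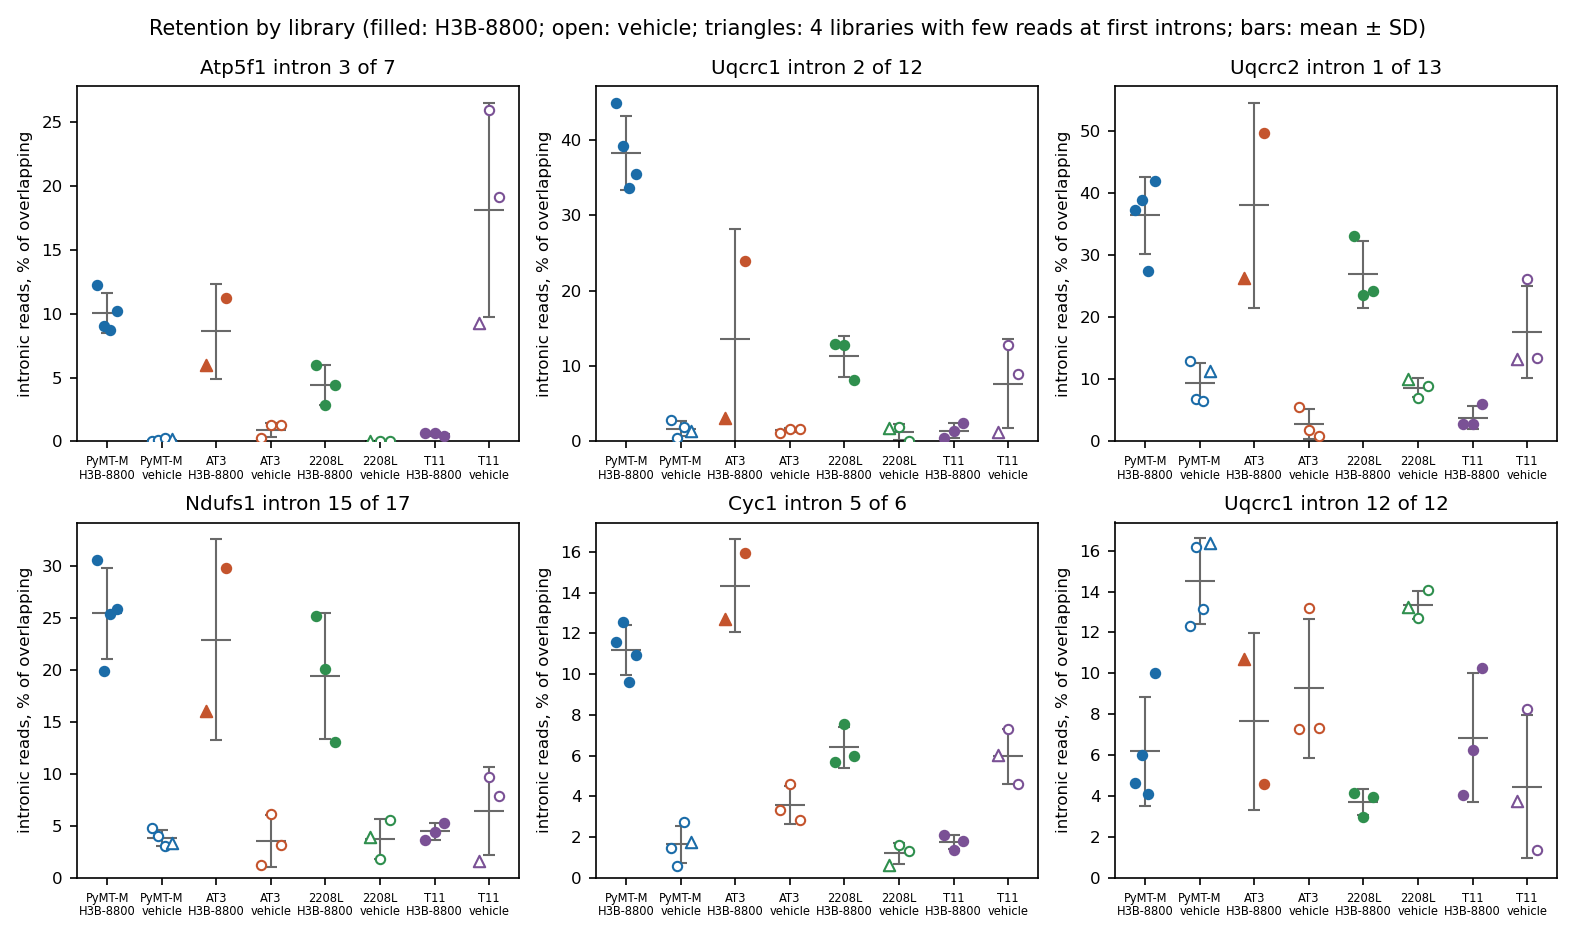
Retention in percent of overlapping reads for 6 introns in each library, by model and treatment (filled points H3B-8800, open points vehicle, bars mean ± SD), with T11 by its labels and triangles for the 4 libraries with few reads at first introns. In PyMT-M, Atp5f1 intron 3 lies between 8.75 and 12.3% with H3B-8800 and at 0 to 0.276% with vehicle, while Uqcrc1 intron 12 lies lower with H3B-8800 in PyMT-M and 2208L.

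Together, 21 introns in 13 member genes were called higher in each of PyMT-M, AT3 and 2208L, which is 10.2% of the member introns tested and compares with 10.7% of all introns tested. In T11 by its labels 20 of the 21 were negative and 13 were called lower. Among the 5546 introns of all genes higher in the 3 models, 99.5% were negative in T11 and 74.2% were called lower. Their median length was 971 bases, against 1215 bases over all member introns tested, and 8 of them held an exon edge and 2 were first introns. Introns not called in any of the 3 models numbered 69, with a median length of 1306 bases. Atp5j intron 2 fell in 2208L, with 0.405, 0.101 and 0.303% in H3B-8800 tumors and 1.08, 2.20 and 2.20% in vehicle tumors (-2.73, SE 0.75, adjusted p = 0.0093). Uqcrb intron 1 was the 1 member intron higher in T11 libraries labelled H3B-8800, at 9.09, 8.45 and 7.84%, against 1.27, 3.71 and 2.82% in those labelled vehicle (1.61, SE 0.58, adjusted p = 0.042).

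Level and retention were set beside each other in PyMT-M. Of the 13 genes whose level rose, 12 had an intron with higher retention, and 44 of their 72 tested introns rose, where 77.4% of all genes had such an intron and 54.7% of all introns rose. The exception was Uqcrfs1, with 1 intron, which was retained at 9.11, 8.37, 5.13 and 8.09% in H3B-8800 tumors and 3.86, 1.96, 0.871 and 6.60% in vehicle tumors (1.29, SE 0.62, adjusted p = 0.071). Of the 31 genes whose level was not called, 23 had such an intron, with 80 of 133 introns higher. Cycs had both, a higher level and a first intron at 10.98, 7.04, 6.56 and 8.79% in H3B-8800 tumors, against 3.65, 1.57, 2.44 and 1.82% in vehicle tumors (1.92, SE 0.41, adjusted p = 0.000163).

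Among vehicle tumors, 18 of 44 members were called in PyMT-M over AT3, 15 in 2208L over T11 and 5 in PyMT-M over 2208L. Of the 13001 genes tested, 7805, 5929 and 5916 were called in the same order, a larger share each time. Between models in C57BL/6 hosts, 17 members were higher and 1 lower in PyMT-M than in AT3, where 32.1% of all genes were higher and 28.0% lower. The median was 0.39 against 0.08 over all genes. Complex III contributed 4 of its 6 genes, with Uqcrc2 at 385, 393, 419 and 396 CPM in PyMT-M and 235, 212 and 281 CPM in AT3 (0.72, SE 0.12, adjusted p = 3.9e-05). The groups were apart. Atp5j, which encodes coupling factor 6 of ATP synthase, was at 1.10 (SE 0.26, adjusted p = 0.0012), Ndufb3 at 0.88, Ndufs8 at 0.83, Atp5o at 0.81, Uqcrb at 0.74, Ndufa4 at 0.73 and Sdhc at 0.44. Cycs was the 1 called lower, with 69.3, 84.2, 108 and 114 CPM in PyMT-M and 143, 135 and 137 CPM in AT3 (-0.56, SE 0.19, adjusted p = 0.016). Sdha was at 0.01 (SE 0.11, adjusted p = 0.95), or -0.066 without TMM, and Atp5b was at -0.19 (SE 0.14, adjusted p = 0.24). The 18 calls became 6 without AT3 vehicle replicate 2, 9 without AT3 vehicle replicate 1 and 10 without PyMT-M vehicle replicate 4. The share of all genes in these fits is not given. Without the 4 libraries with few reads at first introns 19 members were higher and 5 lower, where 34.3% of all genes were higher and 30.9% lower, and the 5 were Cycs at -0.68, Ndufv1 at -0.41, Cox5a at -0.37, Sdhb at -0.37 and Cox4i1 at -0.36.

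Between models in Balb/c hosts, 2 members were higher and 13 lower in 2208L than in T11 libraries labelled vehicle, where 23.1% of all genes were higher and 22.5% lower. The median was -0.35 against -0.02. The libraries of T11 go against their labels, and these differences rest on the libraries labelled vehicle. All 4 genes of complex II were lower, Sdha with 241, 243 and 251 CPM in 2208L and 325, 354 and 379 CPM in T11 (-0.53, SE 0.11, adjusted p = 0.00077), Sdhb at -0.91, Sdhc at -0.52 and Sdhd at -0.52. Cycs had 145, 106 and 114 CPM in 2208L and 357, 258 and 254.7 CPM in T11 (-1.25, SE 0.21, adjusted p = 4.6e-05). None of these groups overlapped. Within T11, the estimates of all 4 genes of complex II were also lower under the H3B-8800 label than under the vehicle label. Sdhc and Sdhd were called, at -0.55 and -0.43, and Sdha and Sdhb were not, at -0.19 and -0.35. Atp5f1 was at -0.96, Ndufv1 at -0.88, Ndufa10 at -0.69 and Atp5b at -0.49, and Ndufa4 was at -0.02 (SE 0.26, adjusted p = 0.96), or 0.13 without TMM. Replicate 3 of T11 labelled vehicle and replicate 1 of 2208L vehicle held 7626 and 5184 CPM of muscle markers. Without libraries with muscle or B cell transcripts 16 members were called, where 4846 of 12785 genes tested were, and Atp5b was not. With the 4 libraries with few reads at first introns left out, 4 members were higher and 13 lower, where 25.5% of all genes were higher and 23.3% lower. Between the responder models 3 members were higher in PyMT-M than in 2208L, where 23.5% of all genes were, namely Sdha at 0.61 (SE 0.11, adjusted p = 0.000111), Ndufb10 at 0.63 and Atp5f1 at 0.55. Lower in PyMT-M were Cox5a at -0.61 and Ndufa5, where 22.0% of all genes were lower. The 5 calls became 3 without PyMT-M vehicle replicate 3 or 2208L vehicle replicate 3, 3 without the libraries with muscle or B cell transcripts, and 8 without the 4 libraries with few reads at first introns, 4 in each direction, where 22.1% of all genes were higher and 24.3% lower. Atp5b, Ndufa4 and Cycs were at -0.09, -0.11 and -0.37 and not called. Host strain differs in this comparison and cannot be told apart from the model.

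Ndufa5, an accessory subunit of complex I on chromosome 6 with introns from 24518825 to 24527525 (mm10), stood apart from all other members by its level in 1 model. It had 2228, 2317 and 2368 CPM in 2208L H3B-8800 tumors and 2686, 1927 and 2714 CPM in 2208L vehicle tumors. In the 19 libraries of the other models it was between 89.0 and 301 CPM, so that there was no overlap. The vehicle level was higher in 2208L than in T11 by 3.55 on the log2 scale (SE 0.32, adjusted p = 1.6e-08), and the difference of PyMT-M over 2208L was -4.25 (SE 0.30, adjusted p = 7.4e-10). With H3B-8800 it was not called in 2208L (-0.08, SE 0.29, adjusted p = 0.89). Of the genes within 10 Mb on each side, 66 were tested. Of these, 15 were over 8-fold higher in 2208L vehicle tumors than in both T11 and PyMT-M vehicle tumors, against 143 of all genes tested, or 1.10%, by the fold edgeR estimates, which for genes near 0 in the other models depends on its prior count. The 15 lay between positions 17065314 and 24664535, a stretch of 21 tested genes that was delimited after the values were seen. Besides Ndufa5 they included Tes, Cav2, Met, Capza2, St7, Cttnbp2, Lsm8, Ankrd7, Ing3, Fam3c, Ptprz1, Fezf1 and Wasl. Capza2, which encodes an actin capping protein, averaged 10856 CPM in 2208L vehicle tumors, against 195 CPM in PyMT-M vehicle tumors. Met, the receptor of hepatocyte growth factor, averaged 3923 CPM in 2208L vehicle tumors and 38.5 CPM in PyMT-M vehicle tumors. Within the stretch Cav1, Wnt2, Tspan12, Cped1, Aass and Lmod2 were not over 8-fold in both. The number of DNA copies was not measured.

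**Figure D5:**
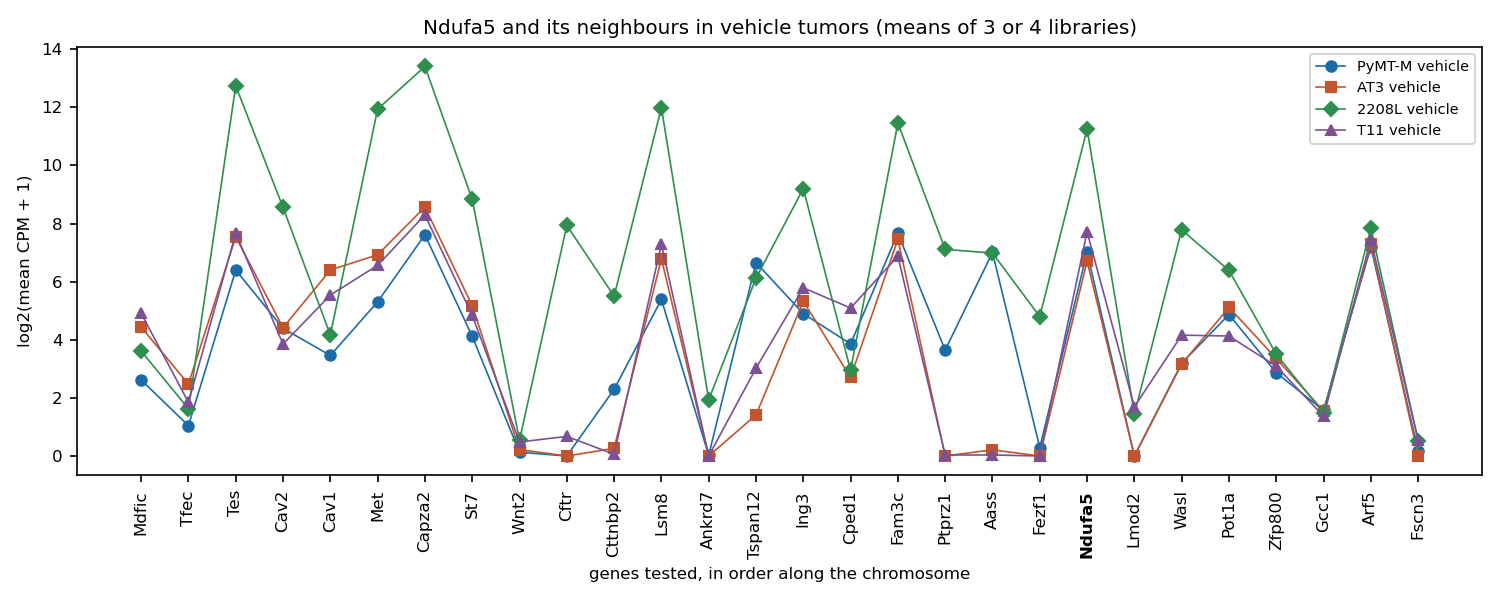
Mean level in vehicle tumors, as log2(mean CPM + 1), of Ndufa5 and its tested neighbours in their order along chromosome 6, with a line for each of the 4 models (means of 3 or 4 libraries). By the edgeR estimate 2208L was over 8-fold above T11 and PyMT-M at 15 of the genes from Tes to Wasl, Ndufa5 included.

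Other genes of the pathway, from lists set down with the members, were counted in PyMT-M in the same fit, to be read against the 10.2% of all genes that rose and the 14.6% that fell, or 12.4% and 16.8% without the 4 libraries. Of 33 other subunits, 5 rose with H3B-8800 and none fell, with a median of 0.44. They were Atp5g3 at 0.68, Cox7b at 0.57, Ndufa1 at 0.69, Ndufb11 at 0.70 and Uqcr10 at 0.70. When the 4 libraries were left out, 26 rose. Of 37 assembly factors tested, 4 rose and none fell, a share near that of all genes, with a median of 0.14. Acad9, an assembly factor of complex I, averaged 248 ± 49.0 CPM in H3B-8800 tumors and 147 ± 26.0 CPM in vehicle tumors (0.76, SE 0.14, adjusted p = 0.00052), and Cox10, the heme O synthase on the way to the heme A of complex IV, was at 1.00. Sco1, which delivers copper to complex IV, was at 0.49 and Ndufaf4 at 0.57. With the 4 libraries left out, 9 assembly factors rose and Ndufaf1 fell. Of 16 genes of the tricarboxylic acid cycle 6 rose and none fell, with a median of 0.26, among them Cs, citrate synthase, with 293 ± 33.8 CPM in H3B-8800 tumors and 201 ± 16.4 CPM in vehicle tumors (0.55, SE 0.12, adjusted p = 0.0022), Ogdh at 0.45 and Idh3g at 0.42. In the fit without the 4 libraries 6 of the 16 rose and Dlst fell by 0.24. Of 5 tissue-specific isoforms tested none was called, and without the 4 libraries Cox7a1 was called higher (0.84, SE 0.30, adjusted p = 0.042).

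Some regulators of mitochondrial gene expression fell. Of 14 tested, 4 fell with H3B-8800 in PyMT-M and none rose, where 14.6% of all genes fell, with a median of -0.18. Polrmt, the RNA polymerase of mitochondria, averaged 20.7 ± 2.59 CPM in H3B-8800 tumors and 51.9 ± 17.7 CPM in vehicle tumors (-1.33, SE 0.26, adjusted p = 0.00095). Tfb1m, which methylates mitochondrial ribosomal RNA, averaged 2.93 ± 0.75 CPM in H3B-8800 tumors and 7.70 ± 1.38 CPM in vehicle tumors (-1.39, SE 0.22, adjusted p = 0.00017). Yy1, a transcription factor, was at -0.71 and Polg, the mitochondrial DNA polymerase, at -0.70. The same 4 were called lower, and none higher, without the 4 libraries. In 2208L Polrmt fell as well, with 27.3 ± 1.40 CPM in H3B-8800 tumors and 54.5 ± 7.63 CPM in vehicle tumors (-0.99, SE 0.30, adjusted p = 0.037). In T11 Polg was higher in libraries labelled H3B-8800 (0.89, SE 0.14, adjusted p = 0.00039).

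Promoters were read from RefSeq (GRCm38.p6), from 250 bases before to 50 after each start. Those of 33 members were read, matched by symbol or, for Atp5f1, by synonym (Atp5pb). The motif of NRF1, a transcription factor known for controlling respiratory genes, was searched as GCGCATGC and that of YY1 as AAGATGGC, each on both strands, and neither motif contains the other. The NRF1 letters were found in 5 of the 33 members (15.2%) and in 3.05% of all genes with a promoter in the table. The YY1 letters were found in 7 (21.2%) and in 3.19% of all genes. Promoters of a member with each motif, both from genes that rose in PyMT-M, are shown with the motif in capitals, that of Cycs holding the reverse complement of the NRF1 letters (chr6:50566520-50566819, minus strand) and that of Ndufb8 the YY1 letters (chr19:44555393-44555692, minus strand).
Cycs promoter: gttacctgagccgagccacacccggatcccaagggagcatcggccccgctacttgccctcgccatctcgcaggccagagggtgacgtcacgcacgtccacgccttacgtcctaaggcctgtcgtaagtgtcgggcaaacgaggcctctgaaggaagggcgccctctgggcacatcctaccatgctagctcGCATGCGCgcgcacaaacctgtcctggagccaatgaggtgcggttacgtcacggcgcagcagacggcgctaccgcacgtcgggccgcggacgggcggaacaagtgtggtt
Ndufb8 promoter: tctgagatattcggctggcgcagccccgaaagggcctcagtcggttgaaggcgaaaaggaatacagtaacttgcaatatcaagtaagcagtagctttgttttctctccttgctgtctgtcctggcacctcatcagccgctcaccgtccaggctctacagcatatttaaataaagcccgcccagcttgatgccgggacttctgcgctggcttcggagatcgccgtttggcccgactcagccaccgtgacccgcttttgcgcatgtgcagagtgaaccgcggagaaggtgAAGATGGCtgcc
A match describes the letters of the window and is not a binding site. Of the 13 members that rose in PyMT-M, Sdhc, Uqcrc2, Ndufb9 and Atp5a1 were not among the 33 and were not searched. Among the rest, Cycs held the NRF1 letters, and Ndufb8 and Atp5f1 held the YY1 letters. The other members with the letters were not called in PyMT-M. They were Ndufa6, Ndufa8, Sdhb and Uqcrc1 for NRF1, and Ndufa9, Ndufs4, Ndufs6, Ndufs7 and Atp5j for YY1. Whether the letters go with the rise was not tested.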

How the data were processed

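Whole tumors were kept in RNAlater, RNA was taken with RNeasy kits and libraries were stranded and poly(A)-selected (TruSeq), per the labels' protocols. The authors deposited, for each library, counts of reads inside and overlapping each intron and RPKM values. Alignment with HISAT2 2.0.4 to mm10 is per the submitters' processing notes, which also list hg38. Neither the counting tool nor the handling of multiply mapped reads was found in the labels or notes. The counts were used as deposited, and the RPKM values only for the library totals behind them. Of 163337 introns listed, 163315 had values.

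Levels were tested with edgeR 4.0.16 (limma 3.58.1, R 4.3.3) in 1 quasi-likelihood fit over all 25 libraries, after keeping genes with at least 1 CPM in at least 2 libraries. Introns were tested with intronic reads as the counts and the gene's spliced reads plus 0.5 as the offset, for introns that averaged 5 or more intronic reads and 10 or more spliced reads of their own. A call needs a Benjamini-Hochberg adjusted p under 0.05 over all genes or all introns tested. Spliced reads numbered 9820825 to 19700955 per library, and the number of tumors limits the precision. Replicates differed beyond sampling noise. The tests were checked on simulated data.

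The members, lists and tests were chosen with earlier results of these data known. For each comparison the text names up to 8 called members per direction with the smallest p, and always Ndufa4, Atp5b, Sdha and Cycs. It names up to 8 introns higher in PyMT-M, AT3 and 2208L and up to 4 lower in several models. Further members and the introns shown with sequences were added after their values were seen. Alternatives were DESeq2 1.42.0, no TMM, no filter, the median over introns, a replicate block, leaving out libraries and introns with exon edges, and other offsets. The RPKM library totals and leaving out the 4 libraries with few reads at first introns were added after seeing the data.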

Additional observations from a re-analysis of the deposited data

Results flagged for a closer look

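In 90 groups of 4 libraries the distance of the farthest library was compared with the range of its group, a rule that chance meets in about 1 of 20 groups. PyMT-M H3B-8800 replicate 4 lay below the others for 4 members. It had 91.3 CPM of Ndufa8, against 125 to 129 CPM in the other H3B-8800 libraries of the model, and 194 CPM of Ndufa9, against 245 to 254 CPM. It had 481 CPM of Sdha, against 575 to 585 CPM, and 82.1 CPM of Sdhd, against 100 to 103 CPM. Pooled retention of member introns was 7.11% in PyMT-M H3B-8800 replicate 3, below the 10.05 to 10.3% of the other 3.

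The drug effect differed between 2208L and T11, by its labels, for 4 of 44 members in the edgeR test of the difference. Each was called higher, where 6.88% of all genes tested were. The log2 difference was 0.87 for Sdhc (adjusted p = 0.0025), 0.66 for Sdhd (adjusted p = 0.011), 0.98 for Uqcrb (adjusted p = 0.030) and 0.73 for Ndufa10 (adjusted p = 0.033). All 4 rest on T11 libraries that go against their labels.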

How the results depend on the processing

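Of the counts and pooled retention values under all alternatives 194 stayed within 1.5 times or 1 SD and 63 did not; of the values of named members and introns 1824 kept direction and call, 186 lost a call, 16 gained one and 32 changed sign. The cause was not tested. Without the 4 libraries with few reads at first introns, the PyMT-M count was 36, PyMT-M over 2208L in vehicle tumors 8, and intron calls 71 in AT3 and 46 in T11; Ndufa4 changed sign to 0.45 in PyMT-M minus AT3 and 0.10 in 2208L over T11, and Uqcrc1 intron 12 in AT3 to -1.23. The T11 count was 15 with DESeq2, 2 without TMM, 3 without the filter, 3 with the median over introns, 1 without muscle or B cell libraries and 2 with RPKM totals. The count for the mean of 3 models was 5 without TMM, 7 with the median over introns and 10 without muscle or B cell libraries; that for 2208L minus T11 was 2, 1 and, with RPKM totals, 1. PyMT-M over 2208L gave 3 without muscle or B cell libraries and 9 with RPKM totals. Intron calls were 60 in AT3 and 41 in T11 with library size as the offset, and 29 in 2208L and 84 in the mean without introns with exon edges. As means of per-intron percents, retention was 11.7% in PyMT-M H3B-8800, 6.31% in 2208L H3B-8800 and 3.37% in 2208L vehicle. Signs changed with RPKM totals for Atp5b (-0.039), Sdha (-0.0058) and Cycs (-0.039) in AT3. Sdha in T11 was at 0.040 without TMM and 0.11 with RPKM totals, and in PyMT-M over AT3 at -0.066 without TMM, -0.020 without the filter, -0.042 without muscle or B cell libraries and -0.10 with RPKM totals. Ndufa4 in 2208L over T11 was at 0.13 without TMM and 0.10 with RPKM totals, and in PyMT-M over 2208L at 0.10 without muscle or B cell libraries.

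Without TMM the median of all genes shifted by -0.16 in PyMT-M, -0.20 in AT3 and 0.21 in T11, and 19.8%, 10.2% and 90.5% of all called genes were then higher, with 1328 higher and 1896 lower in PyMT-M, 16 and 23 in AT3, and 866 and 659 in T11 under TMM.

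Leaving out each library in turn gave 8 to 18 called members in PyMT-M, 0 to 13 in AT3, 0 to 0 in 2208L, 2 to 15 in T11, 4 to 28 in the mean and 2 to 5 in 2208L minus T11. Vehicle comparisons gave 6 to 20 (PyMT-M over AT3), 12 to 18 (2208L over T11) and 3 to 6 (PyMT-M over 2208L). No share of all genes stands beside these ranges, so nothing particular to the members is read from them. Intron calls were 105 to 130 in PyMT-M, 4 to 48 in AT3, 17 to 40 in 2208L, 12 to 36 in T11 and 98 to 140 in the mean. Ndufa4 ranged from -0.10 to 0.26 in 2208L, -0.71 to 0.27 in PyMT-M minus AT3, -0.25 to 0.30 in 2208L over T11 and -0.30 to 0.10 in PyMT-M over 2208L; Sdha in PyMT-M over AT3 from -0.074 to 0.099, and Uqcrc1 intron 12 in AT3 from -1.23 to 0.75.

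With the replicate block the counts were 13 in PyMT-M, 0 in AT3, 0 in 2208L, 4 in T11 and 12 in the mean; intron calls were 11 in AT3, and Uqcrc1 intron 12 in AT3 was at -0.19. Same-numbered libraries correlated between -0.364 and 0.369. Libraries with different numbers were not compared, so these values do not settle whether the numbers pair the samples.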
